A study of Mus musculus with 10 samples.

Results

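The genes described here are 9 receptor chains through which T cells read interleukin 2, interleukin 7, interleukin 12, interleukin 15, interleukin 18 and interferon gamma, and Stat4, which carries the interleukin 12 signal. They are Il2rb, Il2rg, Il7r, Il15ra, Il12rb1, Il12rb2, Il18r1, Il18rap, Ifngr1 and Stat4. They were found by gene symbol in the deposited table, which gave 10 of 48825 genes. Each was read in 10 libraries of T cells from mouse melanomas in 4 treatment groups.

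The labels of all mice include the alleles BrafCA and Tyr::CreER, of a melanoma model with an activated Braf allele, and the genotype field of every library also reads wild type. Tyr::CreER places an inducible Cre recombinase under the tyrosinase promoter, which directs recombination to melanocytes. Treatment began 30 days after tumor induction, at a tumor volume under 100 mm3, and lasted 30 days or until 2 cm3. The Control group (n = 3 libraries) is labelled only as control; the protocol gives normal chow and, in various experiments, PBS vehicle as the untreated arms. The CSF1Ri group (n = 2) received chow with PLX6134, an inhibitor of the macrophage growth factor receptor CSF1R, at 600 mg/kg. The CD40 group (n = 3) received FGK4.5, an antibody that activates CD40 on antigen-presenting cells, at 10 mg/kg every 3 days by intraperitoneal injection, for up to 10 doses. The CSF1Ri+CD40 group (n = 2) received both. Mice were age-matched, with no age given, and each library pooled at least 3 tumors, so replicates are pools. The 2 inhibitor groups have only 2 pools each, and the p-values from limma rest on the spread between pools.

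Libraries are named by group and number, as in CSF1Ri 6, and a shared number does not join libraries of different groups. Each library held 11538244 to 14024851 normalized counts in all. The tissue field of the labels reads tumor associated macrophages, while the titles read T cells. The T cell genes Cd3d, Cd3e, Cd3g, Cd247, Cd2, Cd5, Lck and Zap70 summed to 74208 to 125177 normalized counts per library. By contrast, 9 macrophage genes summed to 518 to 2595, Csf1r was at 30 to 235, and Adgre1, the gene of the macrophage protein F4/80, was at 0 in Control 3, CD40 3, CSF1Ri+CD40 1 and CSF1Ri+CD40 3. Natural killer (NK) cells carry several of the same receptors, and 8 NK genes summed to 877 to 2459, with Ncr1 at 236 to 911. Y-linked transcripts were read in Control 1, CD40 2 and CD40 3, at sums of 1569 to 3072, and were at 0 or 1 in the other 7 libraries; values that move most without those 3 are given beside the results. The 7 libraries without Y-linked transcripts hold a single CD40 library, CD40 1, which is assumed to vary like the other groups.

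Type I cytokine receptors are assembled from shared and private chains. Il2rg encodes the common gamma chain, which pairs with Il2rb for interleukins 2 and 15 and with Il7r for interleukin 7, and signals through JAK3 and STAT5. Il12rb1 and Il12rb2 form the interleukin 12 receptor, whose signal through STAT4 promotes interferon gamma production in T helper 1, CD8 and NK cells. Il18r1 and Il18rap form the interleukin 18 receptor, which uses MYD88 and acts together with interleukin 12, and Ifngr1 binds interferon gamma itself. Il7r is known as a gene of naive and memory T cells that is turned down on activation, whereas Il2rb and Il12rb2 are turned up by it.

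RefSeq promoter entries (GRCm38.p6) were found for 8 of the 10 genes. The 250 bases before each annotated start were searched on both strands for 5 motifs: a STAT site (GAS, TTCNNNGAA, found in 7.02% of 32851 promoter windows of that length), a T-box site (GGTGTGA, 3.33%), a RUNX site (TGTGGT, 14.0%), an ETS site (CCGGAAG, 6.91%) and an NF-kB site (GGGNNTTCC, 4.98%). Il12rb2 is shown whole because it had the largest differences between groups. The 30 bases around the other STAT sites, and around the ETS site of Il2rg, are also shown. Capitals mark the matched letters, and positions count back from the start site.
Il12rb2, chr6:67376189-67376438, minus strand, STAT site beginning at -123: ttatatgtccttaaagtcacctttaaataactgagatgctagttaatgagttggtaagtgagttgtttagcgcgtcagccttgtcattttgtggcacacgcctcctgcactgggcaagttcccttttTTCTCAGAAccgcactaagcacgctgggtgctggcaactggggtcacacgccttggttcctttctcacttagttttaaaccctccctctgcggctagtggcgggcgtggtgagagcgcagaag
Il7r, chr15:9529999-9530028, minus strand, STAT site at -142: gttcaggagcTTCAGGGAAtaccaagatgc
Il18r1, chr1:40465777-40465806, plus strand, STAT site at -219 of a start site inside the gene: tcggggttagTTCTGGGAActgtggagctc
Il18r1, chr1:40465844-40465873, plus strand, STAT site at -152 of the same start: agtacaggtcTTCCCAGAActgaaagcttg
Il2rg, chrX:101268256-101268285, minus strand, ETS site at -17: aaggttctttccaCCGGAAGctacgacaaa
Il2rg also held a RUNX match at -227 and Il15ra an ETS match at -104. None of the 5 motifs was matched in the windows of Stat4, Il18rap and Ifngr1, and no T-box or NF-kB match was found in the windows of the 8 genes. A match is a run of letters and not a measured binding site. The Il7r and Il18r1 matches lie inside the GENCODE gene bodies of those genes, because the RefSeq starts they belong to lie downstream of the GENCODE ones. Il18r1 has RefSeq starts 1 to 3, and both of its matches belong to start 3. No match was found for start 1, whose window ends just before the GENCODE start, or for start 2.

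Levels were compared between genes only after division by the length of their merged GENCODE exons. Per kilobase, Ifngr1 and Il2rg were the most abundant, with means over the 10 libraries of 4926 and 4626 normalized counts per kilobase. Their libraries overlapped, between 3352 and 6193. Il7r (1215) and Il2rb (1150) followed and overlapped with each other between 677.9 and 2052, below every library of the first pair. Il18r1 stood at 269.7, Stat4 at 147.9 and Il18rap at 146.4, and the last pair cannot be ordered. Il12rb1 (62.02), Il12rb2 (42.91) and Il15ra (42.69) were lowest and overlapped with one another. Within the interleukin 18 receptor the ligand-binding chain Il18r1 was thus above its partner Il18rap in every library, and within the gamma chain family the shared chain was above both private chains in every library, too.

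**Figure D1:**
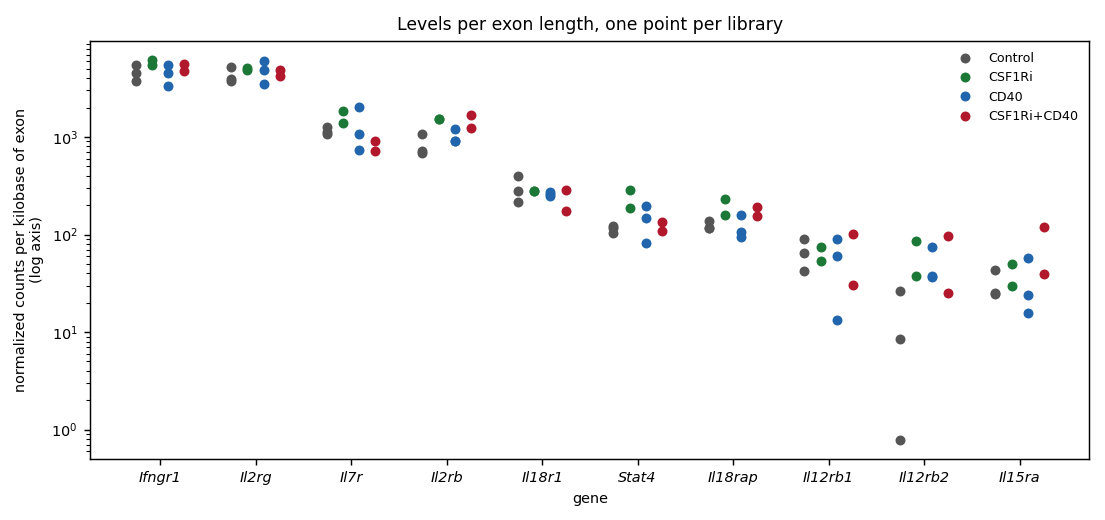
Normalized counts per kilobase of exon (log axis) of the 10 genes, ordered by their mean, with one point per library coloured by group. Ifngr1 and Il2rg lie between 3352 and 6193, and Il12rb2 spans the widest range, from 0.791 in Control 1 to 97.00 in CSF1Ri+CD40 1.

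No gene of the 10 passed an adjusted p of 0.05 in any of 8 contrasts fitted with limma and adjusted by Benjamini-Hochberg over 15716 genes. Few genes of any kind did: 0.00636% for CSF1Ri over Control, 0.00636% for CD40 over Control, and 0% for each of the other 6 contrasts. At an unadjusted p under 0.05, CSF1Ri over Control had 3 of the 10 genes on the higher side (Il2rb, Il12rb2 and Stat4), against 1.99% of all genes. That count was 1 (Il2rb) without CSF1Ri 6, 1 (Il12rb2) with libraries scaled to the same Cd3d, Cd3e and Cd3g, and 2 (Il2rb and Il12rb2) without Control 2. CD40 over Control had 1 (Il12rb2), against 2.63%, and CSF1Ri+CD40 over Control had 2 (Il2rb and Il12rb2), against 2.34%. These 3 contrasts share the Control libraries. For CSF1Ri+CD40 over CSF1Ri, 2 genes (Il7r and Stat4) were on the lower side, against 2.04%. None of the 10 was at an unadjusted p under 0.05 for CSF1Ri+CD40 over CD40 (4.96% of all genes), the interaction of the treatments (4.17%) or the antibody averaged over the inhibitor (4.67%). In the 7 libraries without Y-linked transcripts, however, the interaction had 2 (Il7r, unadjusted p 0.0337, and Stat4, 0.00821) and the averaged antibody contrast 1 (Il7r, 0.00913), with adjusted p of at least 0.836 in limma. When the inhibitor was averaged over the antibody, so that its 4 libraries were set against the other 6, 2 genes (Il2rb and Il18rap) were on the higher side, against 2.49%. Leaving out single libraries moved these unadjusted counts, to 0 for CD40 over Control without Control 1, to 1 for CSF1Ri+CD40 over Control without CSF1Ri+CD40 1 (Il15ra) or Control 1 (Il2rb), and to 0 for CSF1Ri+CD40 over CSF1Ri without CSF1Ri+CD40 3. The averaged inhibitor count ranged from 1 without CSF1Ri 6 to 5 without CD40 1, and Il2rb was among its genes in each of the 10 omissions. The counts of 0 became at most 3 for CSF1Ri+CD40 over CD40 (without CD40 1), 2 for the interaction (without CD40 2) and 1 for the averaged antibody contrast (without Control 2 or CD40 3).

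The direction of the point estimates was counted in each contrast over Control, and the difference between treatments was not tested. In CSF1Ri over Control, 9 of the 10 genes had a positive log2 fold change, with a median of 0.43, where 51.1% of all genes were positive and their median was 0.016. In CD40 over Control the genes split into 5 and 5 with a median of -0.01 (all genes, -0.010). In CSF1Ri+CD40 over Control, 7 were positive and 3 negative with a median of 0.15 (all genes, -0.002). These counts turned on a few libraries and on the scaling. Without the libraries that held Y-linked transcripts, 10, 9 and 8 of the 10 genes were positive in CSF1Ri, CD40 and CSF1Ri+CD40 over Control. Scaled to the Cd3 genes, 5, 2 and 4 were positive, and 8, 5 and 7 lay above the shifted medians of all genes (-0.376, -0.292 and -0.382). The same 8, 5 and 7 lay above the medians with libraries scaled to the same total. A scaling moves all genes of a library alike, so placements relative to the median, here and below, largely undo it and do not check it. All 10 genes had passed the filter on low values, Il12rb2 with at least 10 normalized counts in 9 libraries and the others in all 10. Since the libraries hold bulk RNA, fewer cells that carry a transcript and less of it per cell cannot be told apart.

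**Figure D2:**
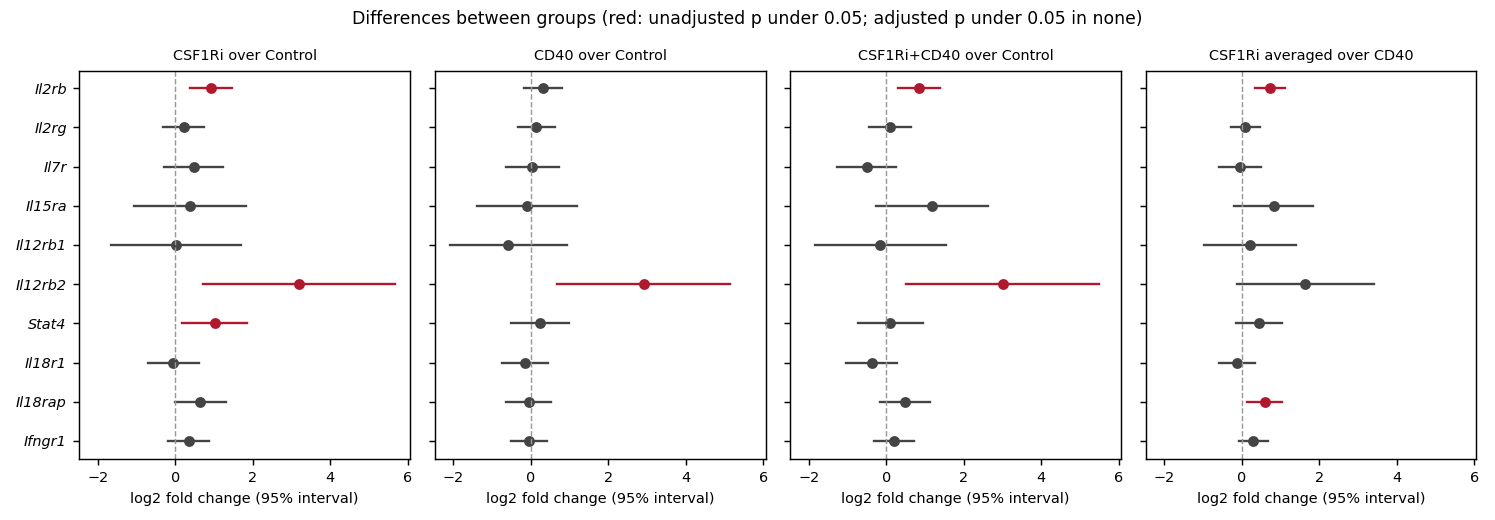
Log2 fold changes (points) with 95% intervals (lines) of the 10 genes in 4 contrasts from limma; CSF1Ri averaged over CD40 sets the 4 inhibitor libraries against the other 6. Red marks an unadjusted p under 0.05; the adjusted p of Il2rb in the right-hand panel is 0.994.

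Il2rb (ENSMUSG00000068227.9, chromosome 15, 78479256 to 78495271, minus strand, GRCm38) encodes the signaling beta chain for interleukins 2 and 15. Its normalized counts were 2906, 3097 and 4620 in Control 1, 2 and 3, 6565 and 6483 in CSF1Ri 1 and 6, 5181, 3902 and 3944 in CD40 1, 2 and 3, and 7260 and 5343 in CSF1Ri+CD40 1 and 3. All 4 libraries with the inhibitor lay above all 6 without it, with the closest pair CSF1Ri+CD40 3 and CD40 1. Only 0.592% of all genes were placed this way, and Il2rb was the 1 of the 10 that was. The group means were 3541 ± 939 in Control (SD, n = 3), 6524 ± 58.0 in CSF1Ri (SD, n = 2), 4342 ± 727 in CD40 (SD, n = 3) and 6302 ± 1356 in CSF1Ri+CD40 (SD, n = 2).

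The averaged inhibitor contrast of Il2rb gave a log2 fold change of 0.72 (SE 0.176, 95% interval 0.34 to 1.11; 0.53 in the libraries without Y-linked transcripts), with an unadjusted p of 0.00161 in limma that ranked 22 of 15716 genes and an adjusted p of 0.994. CSF1Ri alone was at 0.91 over Control (interval 0.37 to 1.46, adjusted p 1.00 in limma) and the combination at 0.85 (0.30 to 1.39, adjusted p 0.743). The antibody alone was at 0.31 (-0.18 to 0.80), which does not exclude a difference of either sign. Between CSF1Ri+CD40 and CD40, which also did not overlap (8.19% of genes were apart and higher), Il2rb was at 0.53 (-0.01 to 1.08), and at 0.27 in the libraries without Y-linked transcripts. The interaction of inhibitor and antibody on Il2rb had a 95% interval of -1.15 to 0.39, which leaves both a smaller and a larger combined effect possible.

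The sum of the co-receptor genes of conventional T cells split the libraries in the same way, though no single one of them did. At an unadjusted p under 0.05 in limma, all 3 were higher in CSF1Ri over Control and in the averaged inhibitor contrast (1.99% and 2.49% of all genes were). In the combination over Control 2 were higher (Cd8a and Cd8b1), against 2.34%, and in CD40 over Control 0, against 2.63%. Cd4, Cd8a and Cd8b1 summed to 12235 and 13291 in CSF1Ri and to 13284 and 14116 in CSF1Ri+CD40, against 6452 to 6837 in Control and 6366 to 12093 in CD40. The 8 general T cell genes did not split this way, since CD40 1 (106991) and CD40 2 (125177) were among the highest sums. When libraries were scaled to the same Cd3d, Cd3e and Cd3g, Il2rb in CSF1Ri over Control was at 0.50 (unadjusted p 0.0767 in limma). The median of all genes moved to -0.38, and Il2rb was 0.88 above it. Since the scaling moves all genes of a library alike, this distance largely undoes it and is no check on T cell content. The NK genes summed to 1253 to 1989 in Control, 1601 to 1998 in CSF1Ri, 877 to 1907 in CD40 and 1850 to 2459 in the combination, and in limma at an unadjusted p under 0.05 the 7 tested held 0 genes in CSF1Ri over Control, 1 higher (Eomes) in the combination over Control and 1 higher (Klrc1) in the averaged inhibitor contrast.

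Markers of other cells also differed between the groups. The 5 erythroid genes were all lower at an unadjusted p under 0.05 in limma in the averaged inhibitor contrast (2.11% of all genes were), with a median log2 fold change of -2.74. For the antibody averaged over the inhibitor, all 5 were lower at that threshold too, with a median of -3.40 (4.67% of all genes passed in either direction). They summed to 13071, 15906 and 2940 in Control, 1318 and 2729 in CSF1Ri, 876 to 1195 in CD40, and 13 and 501 in CSF1Ri+CD40. Of 9 macrophage genes, 3 (Csf1r, Lyz2 and C1qc) were lower in the averaged inhibitor contrast at the same threshold and 0 higher. By direction alone, 6 were lower and 3 higher. The mean of Csf1r was 112.0 in Control, 116.0 in CSF1Ri and 35.50 in CSF1Ri+CD40. Cd68 went the other way, with means of 148.0, 225.5 and 342.5 in those groups. In CD40 over Control, 5 of 6 mast cell genes were higher at that threshold (2.63% of all genes were), where Il12rb2 was the 1 member that was. The mast cell genes summed to 531 to 1725 in Control and 2428 to 18054 in CD40. In the averaged inhibitor contrast, 0 of the 6 passed that threshold. The 6 gamma delta T cell genes summed to 14250, 11990 and 18002 in Control and 9481 and 16906 in CSF1Ri. Their sums were 9366, 5246 and 12094 in CD40, and 8214 and 8199 in CSF1Ri+CD40. In the combination over Control, 4 of them were lower at an unadjusted p under 0.05 in limma and 0 higher, against 3.07% and 2.34% of all genes. The part of T cell, gamma delta T cell, NK cell, erythroid, macrophage and mast cell content in the values of Il2rb, Il12rb2 and the other members was not tested.

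**Figure D3:**
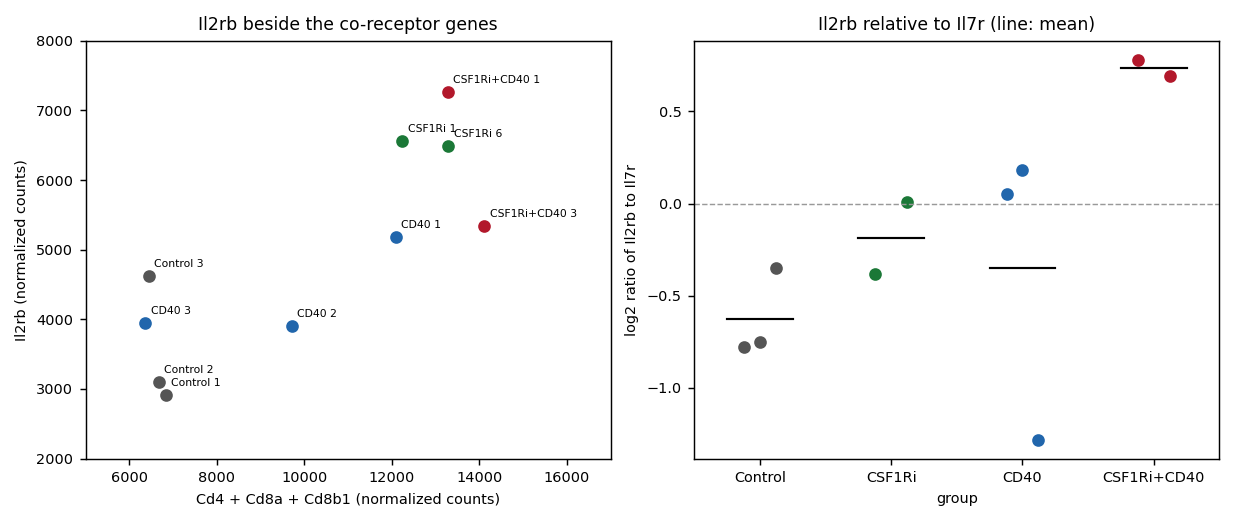
Left, Il2rb against the sum of Cd4, Cd8a and Cd8b1 in normalized counts, one labelled point per library; the 4 inhibitor libraries are highest on both axes, and CD40 1, at 5181 Il2rb, is next to them. Right, the log2 ratio of Il2rb to Il7r per library by group (lines are means); CSF1Ri+CD40, at 0.78 and 0.69, lies above all other libraries.

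Il2rg (ENSMUSG00000031304.18, chromosome X, 101264378 to 101268255, minus strand) encodes the common gamma chain itself. It ranged from 8324 in CD40 3 to 14244 in CD40 2, so that a single group held both extremes and all groups overlapped. CSF1Ri over Control was at 0.22 (-0.32 to 0.75) and became -0.20 when libraries were scaled to the Cd3 genes, 0.18 above the shifted median. Of its exon bases, 30.5% are shared with Gm20489, a gene model on the same strand that was at 0 to 3 in every library, so reads there cannot be assigned with certainty. The gene most like it over the 10 libraries was Trbc2, a constant segment of the T cell receptor beta chain, with r = 0.981.

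Il7r (ENSMUSG00000003882.5, chromosome 15, 9505788 to 9530176, minus strand) encodes the interleukin 7 receptor alpha chain. Its normalized counts were 4978, 5216 and 5875 in Control, 8570 and 6433 in CSF1Ri, 5009, 3456 and 9570 in CD40, and 4226 and 3319 in CSF1Ri+CD40. Both CSF1Ri libraries lay above all Control libraries and both combination libraries below them, while CD40 held the highest value of all and the second lowest. Among all genes, 11.6% were apart and higher in CSF1Ri over Control and 9.60% were apart and lower in CSF1Ri+CD40 over Control, so neither placement is rare. The log2 fold changes over Control were 0.47 (-0.29 to 1.24) and -0.51 (-1.27 to 0.25).

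Between the inhibitor groups themselves Il7r differed by -0.99 (SE 0.380, unadjusted p 0.0242 in limma, adjusted p 1.00), with the combination lower; 16.8% of genes were apart and lower there. Its interaction term was -1.03 (-2.10 to 0.05, adjusted p 0.991 in limma), and it was -0.63 without CD40 3 and -0.84 in the libraries without Y-linked transcripts. Il7r and Il2rb therefore parted in the combination. The log2 ratio of Il2rb to Il7r was 0.78 and 0.69 in CSF1Ri+CD40, against -0.78, -0.75 and -0.35 in Control, -0.38 and 0.01 in CSF1Ri, and 0.05, 0.18 and -1.28 in CD40. This ratio was looked at because of the values of both genes and has no test.

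Il15ra (ENSMUSG00000023206.16, chromosome 2, 11705290 to 11734317, plus strand) presents interleukin 15 to cells that carry Il2rb and Il2rg. It stood at 108 to 194 normalized counts in Control, 224 and 133 in CSF1Ri, 70 to 253 in CD40, and 173 and 525 in CSF1Ri+CD40. The value of 525 in CSF1Ri+CD40 3 stood far above the next highest, 253 in CD40 1, and all groups overlapped. The combination was at 1.18 over Control (-0.26 to 2.62), which became 0.38 without CSF1Ri+CD40 3. Il2ra, its neighbour 12097 bases away, had r = 0.25 with it (permutation p 0.492, n = 10 libraries, adjusted p 0.765).

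Il12rb2 (ENSMUSG00000018341.12, chromosome 6, 67291318 to 67376188, minus strand) encodes the signaling chain of the interleukin 12 receptor, which T cells acquire as they become T helper 1 or effector CD8 cells. Its normalized counts were 3, 100 and 32 in Control, 141 and 327 in CSF1Ri, 139, 142 and 280 in CD40, and 368 and 96 in CSF1Ri+CD40. Control 1 was almost without reads and Control 3 was low, while Control 2 lay just above the lower combination library. CSF1Ri and CD40 were each apart from Control, and for CD40 over Control 4.19% of genes were apart and higher. Il12rb2 was the 1 of the 10 genes so placed in that contrast.

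Its log2 fold changes over Control were 3.19 for CSF1Ri (SE 1.14, 95% interval 0.70 to 5.67), 2.91 for CD40 (SE 1.02, 0.68 to 5.13) and 3.00 for the combination (SE 1.14, 0.51 to 5.48). The unadjusted p-values in limma were 0.0165, 0.0149 and 0.0223, and the adjusted ones 1.00, 0.722 and 0.895. The sizes rest in large part on Control 1, which also carried Y-linked transcripts. Without it they were 1.90, 1.62 and 1.71, and in the 7 libraries without Y-linked transcripts 1.90, 1.28 and 1.71. The interaction term of -3.10 (-6.61 to 0.42) became -1.81 without Control 1 and -1.47 in those 7 libraries.

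The reads of Il12rb2 are uncertain for another reason. Of its 3794 exon bases, 1519 (40.0%) are shared with Serbp1, an abundant RNA-binding protein gene on the opposite strand, and without strand information reads there cannot be told apart. Serbp1 stood at 6836, 6792 and 4436 in Control and at 4670 to 5817 in the treated libraries, and it was highest in Control 1, the library with the lowest Il12rb2. Its part in the Il12rb2 values was not tested.

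Il12rb1 (ENSMUSG00000000791.9, chromosome 8, 70808449 to 70821424, plus strand), the chain shared with the interleukin 23 receptor, did not show the low Control values of its partner. It stood at 368, 264 and 172 in Control, 219 and 305 in CSF1Ri, 373, 247 and 54 in CD40, and 125 and 419 in CSF1Ri+CD40. Every group overlapped with every other. CD40 over Control was at -0.58 (-2.09 to 0.93), which became 0.25 without CD40 3 and 0.80 in the libraries without Y-linked transcripts. The log2 ratio of Il12rb2 to Il12rb1 was -6.53, -1.39 and -2.39 in Control, and it ranged from -2.11 to 2.35 in the treated libraries.

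Stat4 (ENSMUSG00000062939.11, chromosome 1, 51987148 to 52107189, plus strand) encodes the transcription factor that the interleukin 12 receptor activates. Its normalized counts were 470, 398 and 452 in Control, 721 and 1098 in CSF1Ri, 756, 314 and 573 in CD40, and 525 and 421 in CSF1Ri+CD40. The Control values were tight, and CSF1Ri lay above them. In the combination, 421 lay among them and 525 above them. CSF1Ri over Control was at 1.02 (SE 0.382, interval 0.18 to 1.85, unadjusted p 0.0213 and adjusted p 1.00 in limma), and the combination against CSF1Ri at -0.92 (unadjusted p 0.0495). These 2 differences share the CSF1Ri libraries, and the first was 0.71 without CSF1Ri 6.

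Scaled to the Cd3 genes, Stat4 in CSF1Ri was at 0.61 over Control (unadjusted p 0.210 in limma), which is 0.98 above the shifted median. The interaction term was -1.15 (-2.33 to 0.04), and -1.75 in the libraries without Y-linked transcripts. Gm28177, which shares 26.7% of the Stat4 exon bases on the same strand, was at 0 to 7. Stat4 and Il12rb2 had r = 0.35 (permutation p 0.317, n = 10, adjusted p 0.760).

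**Figure D4:**
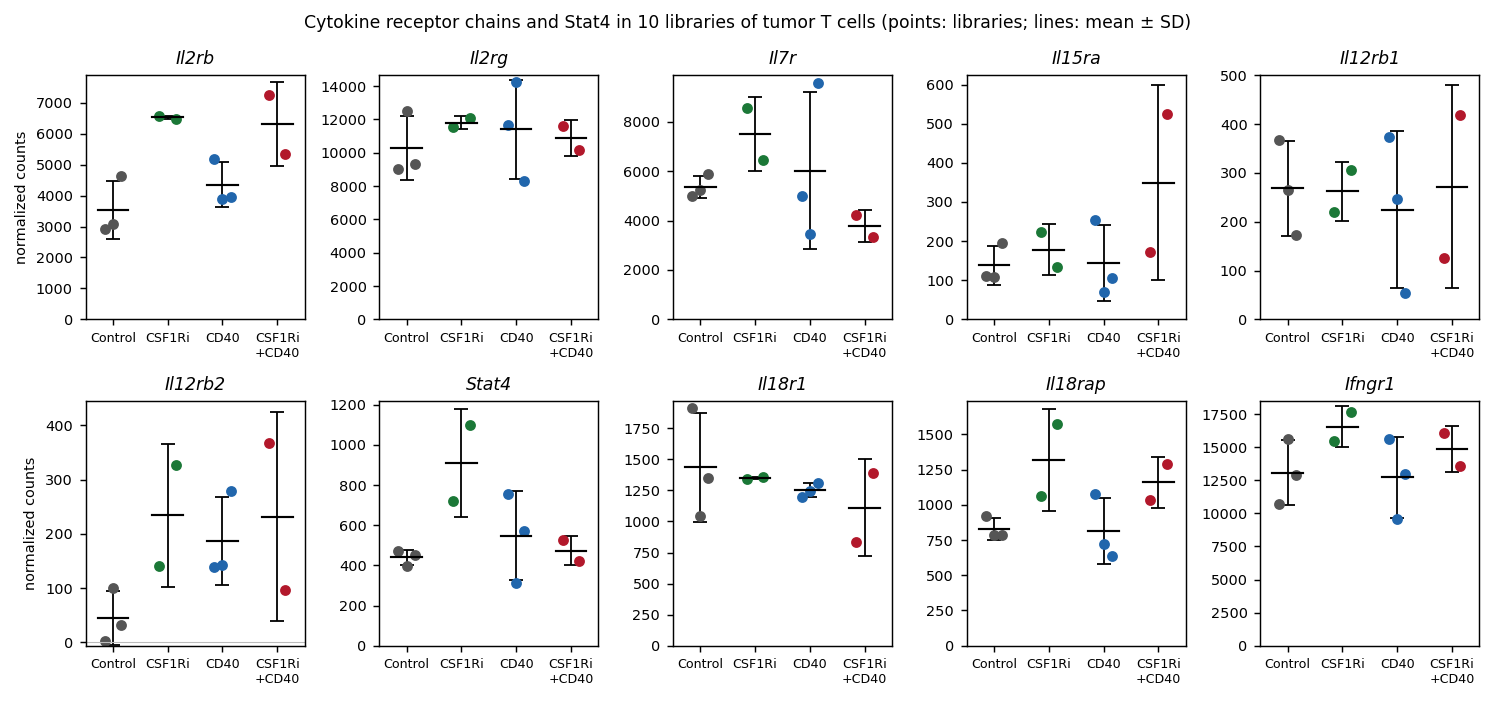
Normalized counts of the 10 genes by group, one point per library, with the mean and SD as lines. Il2rb lies at 5343 to 7260 in the libraries with the inhibitor and at 2906 to 5181 in those without it, while Il2rg, Il12rb1 and Ifngr1 overlap in all groups.

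Il18r1 and Il18rap encode the binding and the signaling chain of the interleukin 18 receptor and lie 14508 bases apart on chromosome 1 (Il18r1, ENSMUSG00000026070.15, 40465552 to 40500854; Il18rap, ENSMUSG00000026068.11, 40515362 to 40551705; both plus strand). Il18rap was at 921, 785 and 783 in Control, 1060 and 1576 in CSF1Ri, 1078, 723 and 639 in CD40, and 1033 and 1288 in CSF1Ri+CD40. Each inhibitor group was apart from Control, as were 11.6% of genes for CSF1Ri and 10.6% for the combination on the higher side, but CD40 1 lay within the inhibitor range. The averaged inhibitor contrast of Il18rap was at 0.59 (SE 0.211, interval 0.13 to 1.05, unadjusted p 0.0164 and adjusted p 0.994 in limma). It was at 0.34 when scaled to the Cd3 genes, 0.57 above the median, which had moved to -0.23, and at 0.41 (unadjusted p 0.0930) in the libraries without Y-linked transcripts.

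Il18r1 overlapped with Control in each treated group, at 1912, 1047 and 1354 in Control, 1343 and 1357 in CSF1Ri, 1195, 1248 and 1310 in CD40, and 836 and 1389 in CSF1Ri+CD40. Its highest library was 2.29 times its lowest. The highest and the second lowest library were both Control. The combination was at -0.37 over Control (-1.03 to 0.28), at -0.01 without CSF1Ri+CD40 1, and at -0.14 in the libraries without Y-linked transcripts. The log2 ratio of Il18r1 to Il18rap was 1.05, 0.42 and 0.79 in Control and -0.30 to 0.34 in the 4 inhibitor libraries, while CD40 spanned 0.15 to 1.03. The chains did not follow each other over the libraries, with r = 0.05 (permutation p 0.891, n = 10, adjusted p 0.891).

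Ifngr1 (ENSMUSG00000020009.13, chromosome 10, 19591949 to 19610229, plus strand), the ligand-binding chain for interferon gamma, was at 10720, 15633 and 12919 in Control and 15455 and 17631 in CSF1Ri. It was at 15627, 9542 and 12998 in CD40 and at 16112 and 13615 in CSF1Ri+CD40. All groups overlapped. CSF1Ri over Control was at 0.35 (-0.18 to 0.88) and at -0.06 when scaled to the Cd3 genes, 0.32 above the shifted median.

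The relation between chains was computed for 12 pairs, 7 of partners, 4 of neighbours in the genome and 1 across receptors (Il12rb2 with Il18r1), as Pearson's r and Spearman's rho over the 10 libraries, and none passed after Benjamini-Hochberg adjustment. The strongest was Il12rb2 with Il18r1, at r = -0.72 (permutation p 0.0326, adjusted p 0.392) and rho = -0.52 (permutation p 0.133, adjusted p 0.663). Without Control 1 and Control 3 it was -0.30, so it rests on those libraries. It was also the most extreme r among all pairs of the 10 genes, which the adjustment over 12 pairs does not cover. The permutations shuffled all 10 libraries across the groups, so differences between groups enter r and its p. For departures from the group means, which have no test, r was -0.87 for Il12rb2 with Il18r1. It was -0.74 for Il7r with Il2rg, against -0.42 over the libraries as they stand. That -0.42 became -0.23 without CD40 3 and CSF1Ri 1, and changed sign to 0.23 in the 7 libraries without Y-linked transcripts. Il12rb2 with Il12rb1 was at r = -0.40 (permutation p 0.218, adjusted p 0.686), and the remaining pairs lay between -0.42 and 0.52.

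Genes most like each member were sought among 10480 genes with a mean of at least 50 normalized counts, by r over the same 10 libraries, which share their scaling. For Il2rb they were Crtam, a receptor of activated cytotoxic T and NK cells (r = 0.939), the costimulatory receptor gene Tnfrsf9 (0.910) and Gm17040 (0.909). Crtam was at 161 to 321 in Control, 700 and 827 in CSF1Ri, 320 to 584 in CD40, and 890 and 738 in CSF1Ri+CD40, which parts the libraries as Il2rb does. Genes picked by their likeness over these libraries share placements largely by that choice, so this is no separate support. For Il12rb2 they were the hyaluronidase gene Hyal2 (0.956), the adaptor gene Myd88 (0.940) and the bacterial sensor gene Nod2 (0.933). Hyal2 and Nod2 were at 0 and 8 in Control 1, the library with 3 normalized counts of Il12rb2. For Il7r they were Trim11 (0.914), Txnip (0.907), which binds thioredoxin, and Zfp780b (0.882).

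The other members had the following most like genes. Stat4 had Cdc23 (0.932), Arhgap1 (0.921) and Tmem129 (0.880). Ifngr1 had Rab18 (0.974), Hnrnpf (0.971) and Gm43863 (0.960), and Il2rg had, after Trbc2, Fxyd5 (0.967) and Rpl7-ps7 (0.964). Il15ra had Sgol1 (0.921), Cd24a (0.902) and Pitpnb (0.889), and Il12rb1 had 9330136K24Rik (0.966), Tpd52 (0.965) and Taf7 (0.952). Il18rap had Mpg (0.910), Fastkd3 (0.871) and Pdia4 (0.870), and Il18r1 had Fam151a (0.876), Uvrag (0.869) and Gm26533 (0.868). The chains of one receptor were not among each other's most like genes.

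The wider pathways of these receptors were read from 3 lists, and no gene of them passed an adjusted p of 0.05 in limma in any contrast. Of the gamma chain list (18 of 19 tested), 0 genes were on the higher side at an unadjusted p under 0.05 and 3 on the lower side in CSF1Ri over Control (1.99% and 2.09% of all genes), and the median log2 fold change was near 0. Stat5b, a transducer of interleukin 2 signals, was at 988, 916 and 940 in Control, 507 and 260 in CSF1Ri, 465, 747 and 983 in CD40, and 443 and 385 in CSF1Ri+CD40. All inhibitor libraries lay below all Control libraries (log2 fold changes -1.38 and -1.20, adjusted p 1.00 and 0.763 in limma). CD40 1, at 465, lay among the inhibitor libraries, so Stat5b did not part them as Il2rb did. For the combination over Control, 9.60% of all genes were apart and lower. In that contrast, 2 genes of the list were higher at an unadjusted p under 0.05 in limma (Il21r and Cish). Another 2 were lower (Stat5b and Tslp), against 2.34% higher and 3.07% lower of all genes. Cish was at 1705 to 2846 in Control, 2798 and 3323 in CSF1Ri, 2287 to 2795 in CD40, and 3782 and 3489 in CSF1Ri+CD40. Tslp, an epithelial cytokine, was at 12 to 31 in Control and 0 to 5 in all treated libraries, and the keratinocyte genes summed to 692 to 1466 in Control and 259 to 1562 in the treated libraries; their part in Tslp was not tested. Il21r was at 338 to 404 in Control, 437 and 346 in CSF1Ri, 427 to 649 in CD40, and 764 and 483 in CSF1Ri+CD40. Stat5a, which also encodes a STAT5 protein, was not lower with the inhibitor as Stat5b was. Its means were 286.7 in Control, 303.0 in CSF1Ri, 317.7 in CD40 and 357.0 in CSF1Ri+CD40.

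Of the interleukin 12 and interferon gamma list (17 of 19 tested), CSF1Ri over Control had 1 gene higher at an unadjusted p under 0.05 and 0 lower, and the combination over Control 4 higher and 0 lower, against 1.99% higher and 2.09% lower of all genes for CSF1Ri and 2.34% and 3.07% for the combination. Cxcr3, a chemokine receptor of T helper 1 and CD8 cells, was at 1142 to 2105 in Control and 2545 and 3890 in CSF1Ri, and at 3842, 4011 and 1570 in CD40. Irf1, an interferon-induced transcription factor, was at 1934 to 2476 in Control and at 3187 and 4252 in the combination (0.75, adjusted p 0.743 in limma). Eomes, a T-box factor of CD8 and NK cells that is also on the NK list, was at 26 to 86 in Control and 208 and 425 in the combination (2.40, adjusted p 0.743). Il23r, which pairs with Il12rb1 and lies 46744 bases from Il12rb2, was at 95 to 146 in Control and 68, 3 and 29 in CD40, opposite to Il12rb2 (-2.60, adjusted p 0.722 in limma). The Il23r difference was -1.44 without CD40 2 and -0.78 in the libraries without Y-linked transcripts. Jak2 was at 690 to 1369 in Control and 603 and 650 in CSF1Ri.

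Of the interleukin 18 and interleukin 1 family list (17 of 18 tested), 1 gene was higher and 0 lower at an unadjusted p under 0.05 in CSF1Ri over Control, which is near the 1.99% and 2.09% of all genes. In the combination over Control, 1 was higher (Myd88) and 2 lower (Il1r1 and Il1rn) at that threshold in limma, against 2.34% and 3.07% of all genes. Il1r2, a decoy receptor for interleukin 1, was at 2127, 4045 and 2983 in Control and 9763 and 5283 in CSF1Ri. Il1r1, the signaling receptor, was at 1160, 630 and 1209 in Control, 426 and 422 in CSF1Ri, 234, 104 and 641 in CD40, and 205 and 346 in the combination (-1.85 over Control, adjusted p 0.830 in limma). Il1rn, the secreted antagonist, was at 8, 97 and 100 in Control and at 0, 2 and 0 in CD40 (-4.95 over Control, adjusted p 0.699 in limma).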

How the data were processed

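The labels' protocols describe tumors that were digested, cleared of red and dead cells, and pooled; unstranded SMARTer libraries were made from 50 ng of RNA and sequenced as 75-base pairs, 6 libraries to a lane. Per the labels' protocols, reads were aligned with STAR to GRCm38 (mm10), counted with HTSeq and taken into DESeq2; versions are not given in the sources used here. The unit of the deposited table is a score: per its name it holds normalized values, and all are whole numbers, so they were taken as counts that the authors normalized and rounded, and are called normalized counts here. Median-of-ratios factors computed from them lay between 1.0289 and 1.0310, so no scaling was added.

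The 15716 genes that reached 10 normalized counts in 2 or more libraries were fitted as log2(value + 1) with limma 3.58.1 (R 4.3.3, variance trend, 4 group means, 6 residual and 5.48 prior degrees of freedom, two-sided). A fold change on this scale understates that of low genes. The fit was tested on simulated data. Groups are called apart when no libraries overlap. Positions and exon lengths are from GENCODE, and permutation tests drew 100000 resamples. Precision is limited by 2 or 3 pools a group, and read depth before normalization is not known. The genes described, the lists and the contrasts were chosen with earlier results of these data known. Named are the 10 members and the 3 genes most like each member. From each pathway list the 2 genes with the smallest p in each contrast over Control are named, and Cish and Stat5a besides. The check of whether same-numbered libraries deviate together gave correlations of -0.254 to 0.23, so the numbers were not taken as pairs. Alternatives were other pseudocounts, filters and scalings, terms for technical measures, and leaving out each library. One labelled allele and one gene pair are not reported here.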

Additional observations from a re-analysis of the deposited data

How the results depend on the processing

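Under 23 other settings, the number of the 10 genes past an adjusted p of 0.05 in limma stayed at 0 in each of the 176 recomputed counts, and the smallest adjusted p was 0.366. Of 31 fold changes recomputed 691 times, 687 values kept their direction. Scaling to Cd3d, Cd3e and Cd3g turned Il2rg (-0.20) and Ifngr1 (-0.06) in CSF1Ri over Control, because the median of all genes moved to -0.38. For Il12rb1 in CD40 over Control, the value was 0.80 in the libraries without Y-linked transcripts and -1.14 to 0.25 when single libraries were left out; the cause was not tested. Il2rb in the averaged inhibitor contrast stayed between 0.47 and 0.83, with an unadjusted p of at most 0.0254. Il12rb2 in CSF1Ri over Control ranged from 1.90 to 4.23, at the ends without Control 1 and without Control 2. With the replicate number as a block, 0 of the 10 genes passed in CD40 over Control, CSF1Ri+CD40 over Control or CSF1Ri+CD40 over CD40; Il2rb was at 0.77 and Il12rb2 at 3.44 in the combination over Control. The CSF1Ri contrasts had no block, since 1 CSF1Ri title carries no number. Values near 0, such as Il12rb2 in Control 1, limit the fold changes of the low genes.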
